A study of Mus musculus with 6 samples.

Results

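The Myc, Max and Mxd network was examined in mouse haematopoietic stem cells from bone marrow, on 3 arrays from animals described as beta catenin floxed and vav-Cre positive (called floxed arrays) and on 3 control arrays. Vav-Cre expresses the recombinase in blood-forming cells, and the genotype of the controls is given by the labels only as control. The cells were sorted as KLSCD34-, a gate for cells that carry c-Kit and Sca-1 and lack lineage markers and CD34. The age and sex of the animals, and whether a replicate was 1 animal or a pool, are not given in the sources used here, so p-values here rest on sample-to-sample spread, part of which may be technical. The network was taken as 10 genes, Myc, Mycn, Mycl (Mycl1 in the array annotation), Max, Mxd1, Mxd3, Mxd4, Mxi1, Mnt and Mlx. Its members were the probe sets annotated to exactly 1 gene, that gene being one of the 10, which gave 79 of the 241576 probe sets in the table. Probe sets entered the tests if their average over the 6 arrays was at or above the median of all such averages (7.60 log2). This left 62 of the 79, at least 1 for each of the 10 genes.

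The proteins of this network bind DNA as pairs joined through a basic helix-loop-helix leucine zipper. Max is the shared partner. Myc, Mycn and Mycl paired with Max activate genes of growth and cell division, whereas Mxd1, Mxi1, Mxd3, Mxd4 and Mnt paired with Max recruit the SIN3 corepressor to the same sites and oppose Myc. Mlx is a Max-like partner of Mnt, of some Mxd proteins and of the glucose-responsive Mondo proteins. In blood-forming tissue Myc is known for its part in the balance between self-renewal and differentiation of stem cells, and the Mxd proteins for their rise during terminal differentiation. Myc is also a proposed target of beta-catenin, the co-activator of canonical Wnt signalling encoded by Ctnnb1, and the comparison asks whether transcripts of the network differ where beta-catenin is floxed.

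Pairs of these proteins recognise one DNA word, the E-box CACGTG, so the promoters of the network's own genes that hold it are shown here. RefSeq promoter windows of build GRCm38.p6, from 250 bases before to 50 bases after a transcription start, were at hand for 9 of the 10 members and not for Myc. The letters CACGTG, which read the same on both strands, stood in 4 of the 11 windows of these 9 members, 1 window for each of 4 members, and in 7.15% of all 32851 windows. The TCF/LEF word CTTTGAT, searched on both strands, stood in 0 of the 11 and in 3.73% of all windows. A match is a description of the letters and not a measured binding site. The 4 windows with an E-box are those of Max (chr12:76962199-76962498, minus strand), Mxd4 (chr5:34187661-34187960, minus strand), Mnt (chr11:74830674-74830973, plus strand) and Mlx (chr11:101087040-101087339, plus strand), given 5′ to 3′ with the E-box in capitals.

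Max: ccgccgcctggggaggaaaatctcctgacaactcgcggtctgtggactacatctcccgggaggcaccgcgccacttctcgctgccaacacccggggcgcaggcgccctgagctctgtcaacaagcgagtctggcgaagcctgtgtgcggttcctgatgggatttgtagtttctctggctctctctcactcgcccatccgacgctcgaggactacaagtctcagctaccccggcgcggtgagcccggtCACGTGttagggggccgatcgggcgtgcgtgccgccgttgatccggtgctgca

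Mxd4: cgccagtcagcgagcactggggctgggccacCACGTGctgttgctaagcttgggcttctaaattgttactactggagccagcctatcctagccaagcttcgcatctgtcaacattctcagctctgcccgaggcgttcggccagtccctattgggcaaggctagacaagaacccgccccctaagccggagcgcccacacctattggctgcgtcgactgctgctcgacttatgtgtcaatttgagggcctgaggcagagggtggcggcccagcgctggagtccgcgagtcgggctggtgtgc

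Mnt: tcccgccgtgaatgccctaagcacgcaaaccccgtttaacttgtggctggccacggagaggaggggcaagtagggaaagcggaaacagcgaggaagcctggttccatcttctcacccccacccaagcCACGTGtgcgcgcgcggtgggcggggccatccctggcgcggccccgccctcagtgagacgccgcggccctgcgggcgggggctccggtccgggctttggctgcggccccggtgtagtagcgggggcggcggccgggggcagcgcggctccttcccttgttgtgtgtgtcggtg

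Mlx: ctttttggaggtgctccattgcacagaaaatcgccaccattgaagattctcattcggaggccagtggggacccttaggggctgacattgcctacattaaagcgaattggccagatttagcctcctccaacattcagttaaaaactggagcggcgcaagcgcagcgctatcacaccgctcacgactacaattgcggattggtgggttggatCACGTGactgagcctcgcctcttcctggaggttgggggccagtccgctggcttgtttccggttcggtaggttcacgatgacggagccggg

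The arrays differed in spread more than in level. Their medians lay between 7.56 and 7.65 on the log2 scale, and genes had a median SD of 0.14 log2 among floxed arrays and 0.23 log2 among control arrays. Ctnnb1 was lower in floxed arrays on 5 of its 16 kept probe sets, with log2 fold changes from -6.90 to -2.51 (limma adjusted p from 1.19e-05 to 0.00137), while the other 11 did not pass. Of 15 stem cell markers listed, 13 were tested. Among them Kit, which encodes c-Kit, was at 11.73 log2 in floxed arrays and 11.84 log2 in control arrays. Cd34, the gene of the marker that the gate excludes, was at 12.65 log2 in floxed arrays and 12.68 log2 in control arrays. Without detection calls no gene could be called absent. The level of one gene is not set against that of another, since each probe set binds with its own strength.

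No member of the network passed the test. A gene was summarised on each array by the median of its kept probe sets, and each fold change is the floxed mean minus the control mean in log2. In limma, 0 of 10 members passed an adjusted p of 0.05, against 0% of the 14586 genes tested, and 0 had an unadjusted p under 0.05, against 3.7% of all genes. The floxed mean was the higher one for 4 of the 10 members and the lower one for 6. Their median log2 fold change was -0.01, beside 0.02 over all genes. Their median absolute log2 fold change was 0.06, beside 0.12 over all genes. The 95% confidence interval lay within 0.5 log2 of 0 for 8 of the 10, the exceptions being Mycl and Max, and for 45.8% of all genes. These intervals apply to the median of a gene's kept probe sets and do not bound the difference on a single probe set. Ctnnb1 did not pass at gene level either, although 5 of its 16 kept probe sets did. Since the arrays measure sorted populations in bulk, fewer cells that hold a transcript and less of it per cell cannot be told apart.

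**Figure D1:**
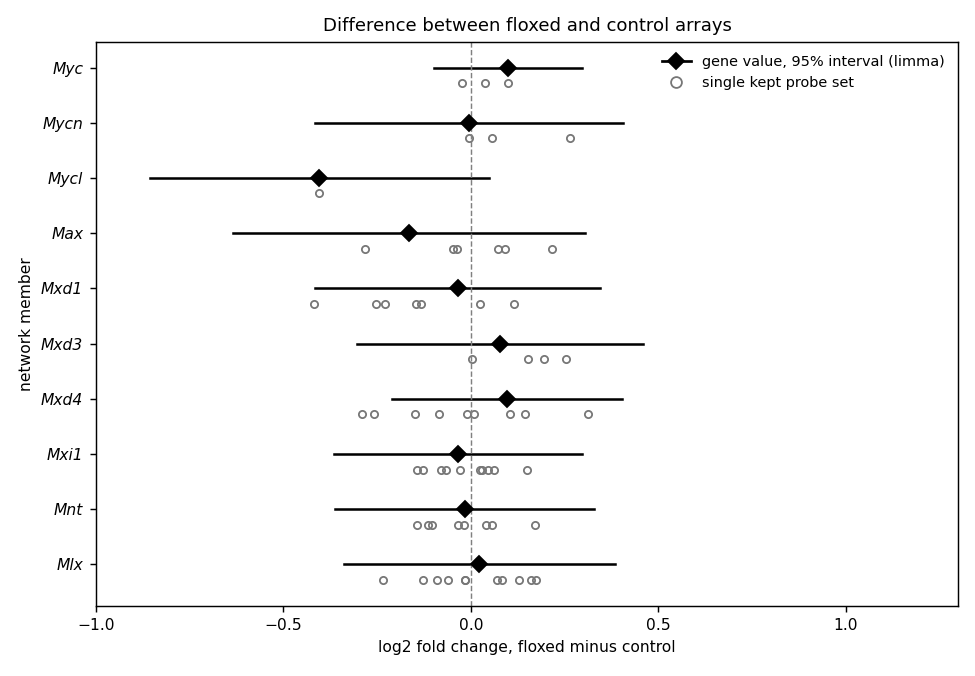
Log2 fold change of each network member, floxed minus control, with its 95% confidence interval from limma (diamonds and lines), and of each single kept probe set (open circles). All 10 intervals cross 0, and that of Mycl, the member furthest from 0 at -0.40, reaches from -0.86 to 0.05.

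Myc is the founding activator of the network. Its value was 12.15, 12.10 and 12.09 log2 in the floxed arrays and 12.06, 12.00 and 11.98 log2 in the control arrays. All 3 floxed arrays stood above all 3 controls, by a narrow margin, and such separation was found for 8.44% of all genes. The log2 fold change was 0.10 (SE 0.09, limma adjusted p = 0.999), a 1.07-fold difference with a 95% interval from 0.934 to 1.23. A two-sided exact permutation over the arrays returned p = 0.1, the lowest value possible with 3 arrays in each group. On every array the gene value of Myc was that of the last of its 3 probe sets, because the first lay above it and the second below. On the first probe set the values were 12.33, 12.39 and 12.64 log2 in floxed arrays and 12.25, 12.68 and 12.32 log2 in control arrays, so the groups overlapped. The second gave 11.62, 11.74 and 11.87 log2 in floxed arrays and 11.55, 11.99 and 11.76 log2 in control arrays. Both of these were highest on control replicate 2, and their log2 fold changes were 0.04 and -0.02 (limma adjusted p = 0.994 and 0.996). The separation of the groups was therefore seen on 1 of the 3 Myc probe sets.

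Mycn, the paralogue best known from neural and embryonic tissue, which also acts with Myc in stem cells of the blood, had 9.47, 9.41 and 9.83 log2 in floxed arrays and 9.28, 9.91 and 9.53 log2 in control arrays. The groups lay over one another, and the log2 fold change was 0.00 (95% interval -0.41 to 0.41, limma adjusted p = 0.999). Its 3 kept probe sets had log2 fold changes from 0.00 to 0.26. Mycl, the remaining paralogue, was the member with the largest difference and the one least well measured, since 1 of its 4 probe sets was kept. That probe set had 8.28, 8.50 and 8.59 log2 in floxed arrays and 8.52, 9.28 and 8.78 log2 in control arrays. The groups overlapped, as control replicate 1 lay below floxed replicate 3, and control replicate 2 stood above the rest. The log2 fold change was -0.40 (SE 0.20, 95% interval -0.86 to 0.05, limma adjusted p = 0.999). Larger absolute log2 fold changes were found for 4.52% of all genes. The other 3 Mycl probe sets, all below the filter, differed by 0.00, 0.01 and -0.26 log2. With array weights Mycl passed (-0.72, limma adjusted p = 0.0318), and it was 1 of 404 genes of 14586 that passed in that fit. Those weights ran from 0.27, on control replicate 1, to 3.37, on control replicate 2, which is also the array with the highest Mycl value. Without control replicate 2 the log2 fold change of Mycl was -0.19 (limma adjusted p = 0.9995), with an unadjusted limma p of 0.335. Without control replicate 1 it was -0.57 (limma adjusted p = 0.189), with an unadjusted limma p of 0.0103.

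**Figure D2:**
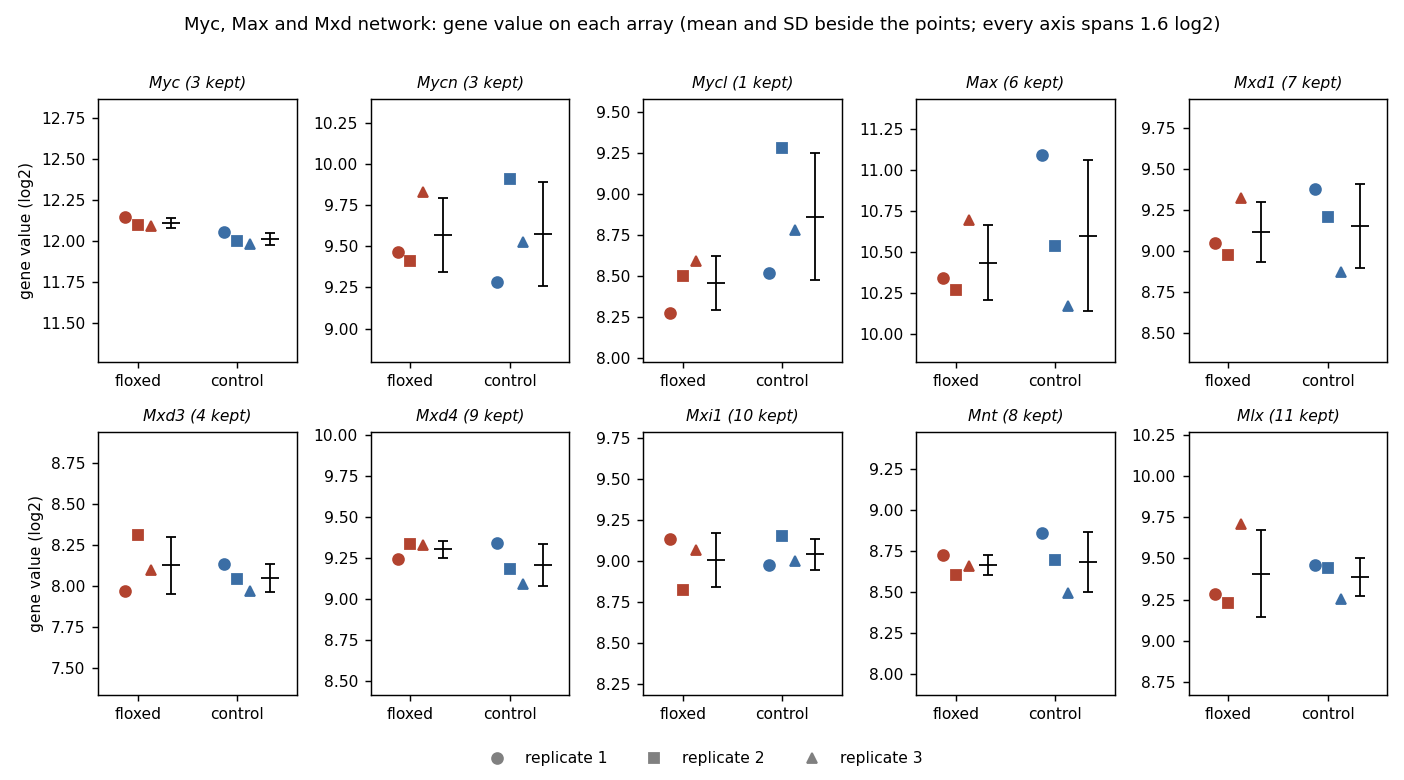
Gene value in log2 of each network member on each array, floxed on the left and control on the right, with the marker shape giving the replicate number and the mean and SD (n = 3) beside the points. The number of kept probe sets stands in each title. Myc is the member whose groups do not touch, and control replicate 1 stands far above the other controls for Max.

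Max, the obligate partner of Myc and the Mxd proteins, varied more among the controls than between the groups. Its value was 10.34, 10.26 and 10.70 log2 in floxed arrays and 11.09, 10.54 and 10.17 log2 in control arrays. The controls held both the highest and the lowest value, 0.92 log2 apart. The control SD of 0.46 log2 exceeded that of 89.1% of all genes, whereas the floxed SD was 0.23 log2. Control replicate 1 was the highest array on 6 of the 6 kept Max probe sets, and control replicate 3 the lowest on 5 of them. The high value on control replicate 1 was thus shared by all Max probe sets. Their differences between groups nevertheless pointed both ways, 3 higher and 3 lower in floxed arrays, from -0.28 to 0.22. The gene value had a log2 fold change of -0.16 (SE 0.21, 95% interval -0.63 to 0.31, limma adjusted p = 0.999), which was 0.14 without control replicate 1. Markers of lymphoid cells were high on the same array, as were the lists of CD34 positive progenitor markers, of Mondo and Mlx targets and of genes that Myc represses, each with its highest mean there. The mean over 13 lymphoid markers of 17 listed was 8.46 to 9.09 log2 in floxed arrays and 8.20 to 9.33 log2 in control arrays, highest on control replicate 1, and its part in the Max value was not tested.

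Mlx, which partners Mnt and the Mondo proteins, had 9.28, 9.23 and 9.71 log2 in floxed arrays and 9.46, 9.44 and 9.25 log2 in control arrays. Floxed replicate 3 was the highest array and the remaining values overlapped. The log2 fold change was 0.02 (95% interval -0.34 to 0.38, limma adjusted p = 0.999), and 5 of 11 probe sets were higher and 6 lower. On the eighth Mlx probe set all floxed arrays lay below all controls, at 9.76, 9.92 and 9.99 log2 in floxed arrays against 10.31, 10.06 and 10.01 log2 in control arrays (log2 fold change -0.23, limma adjusted p = 0.975).

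None of the antagonists of Myc passed either. Mxd1, which is induced as myeloid cells mature, had 9.05, 8.98 and 9.32 log2 in floxed arrays and 9.38, 9.20 and 8.87 log2 in control arrays. The lowest and the highest value were both controls, and the log2 fold change was -0.04 (95% interval -0.42 to 0.35, limma adjusted p = 0.999). Its 7 kept probe sets, 2 higher and 5 lower, had log2 fold changes from -0.42 to 0.11. Using the mean of these probe sets, the log2 fold change of the gene was -0.15. Several gene lists were high on the arrays where Mxd1 was high, among them markers of granulocytes and macrophages. The arrays on which Mxd1 lay above its own mean, control replicates 1 and 2 and floxed replicate 3, were those on which the mean of 16 such markers of 17 listed lay above its own. Over these 16 the mean was 9.34 to 9.98 log2 in floxed arrays and 9.33 to 10.22 log2 in control arrays, and its part in the Mxd1 values was not tested. The means of the lymphoid markers, the erythroid and megakaryocyte markers, the Mondo and Mlx targets and the chromatin cofactors of Myc lay above their own averages on those arrays too. Mxi1, a tumour suppressor of the same group, had 9.14, 8.82 and 9.07 log2 in floxed arrays and 8.97, 9.15 and 8.999 log2 in control arrays, with a log2 fold change of -0.03 (95% interval -0.36 to 0.30, limma adjusted p = 0.999). The groups overlapped, and its 10 kept probe sets, 5 higher and 5 lower, had log2 fold changes between -0.14 and 0.15.

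Mxd3, which unlike its relatives is expressed in cycling cells, had 7.97, 8.31 and 8.10 log2 in floxed arrays and 8.14, 8.04 and 7.97 log2 in control arrays. All 4 kept probe sets were higher in floxed arrays, by 0.00 to 0.25 log2, and the gene value had a log2 fold change of 0.08 (95% interval -0.30 to 0.46, limma adjusted p = 0.999). The values lie close to the filter, and 5 of its 9 probe sets fell below it. Control replicate 3 was lowest on 3 of the 4 kept probe sets, and that array also had the lowest mean of 19 proliferation markers, which was 10.44 to 10.50 log2 in floxed arrays and 10.27 to 10.48 log2 in control arrays. Control replicate 3 was also the array of lowest median (7.56 log2), and it had the lowest mean of the corepressors, chromatin cofactors, turnover genes, Myc-activated targets, Mondo and Mlx targets, granulocyte and macrophage markers and lymphoid markers. The part of cycling cells in the Mxd3 values was not tested.

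Mxd4, the Mxd gene linked to resting and mature cells, had 9.24, 9.33 and 9.33 log2 in floxed arrays and 9.34, 9.18 and 9.09 log2 in control arrays. Control replicate 1 stood just above the floxed range, and the log2 fold change was 0.10 (95% interval -0.21 to 0.40, limma adjusted p = 0.999). Its 9 probe sets spanned -0.29 to 0.31. On the first Mxd4 probe set all floxed arrays lay below all controls, at 8.95, 8.92 and 8.99 log2 in floxed arrays against 9.10, 9.18 and 9.45 log2 in control arrays. On the sixth the difference was the other way (log2 fold change 0.31, limma adjusted p = 0.975), with overlapping groups. Mnt, the most widely expressed antagonist, had 8.72, 8.605 and 8.66 log2 in floxed arrays and 8.85, 8.69 and 8.49 log2 in control arrays. The floxed values lay within the control range, and the log2 fold change was -0.02 (95% interval -0.36 to 0.33, limma adjusted p = 0.999).

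Each probe set was also tested on its own. Of the 62 kept probe sets, 30 were higher and 32 lower in floxed arrays, and 0 passed in limma (smallest adjusted p = 0.975), against 0.00414% of all 120788 kept probe sets, where the 5 that passed were all of Ctnnb1. At an unadjusted limma p under 0.05 there were 0 of 62, against 4.35% of all kept probe sets. Groups did not overlap on 3 of the 62, 1 of Myc, 1 of Mxd4 and 1 of Mlx, and on 9.45% of all. The Myc probe set had all floxed arrays above all controls, as had 6.46% of all kept probe sets, and the other two had them below, as had 2.98%. The 95% interval lay within 0.5 log2 of 0 for 18 of the 62 and for 21.7% of all kept probe sets. Departure of single probe sets from the rest of their gene was tested as well. In limma's diffSplice test 0 of the 9 members with several kept probe sets passed, against 0.0169% of the 11831 genes with several. The test asks whether probe sets of a gene differ in their fold change. The smallest unadjusted diffSplice p of a member was 0.667, for Mxd4, where 1.52% of those 11831 genes had one under 0.05. The probe sets nearest the filter were the fourth of Max at 7.64 log2, the first of Mxd3 at 7.65 log2 and, just outside, the first of Mnt at 7.53 log2.

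**Figure D3:**
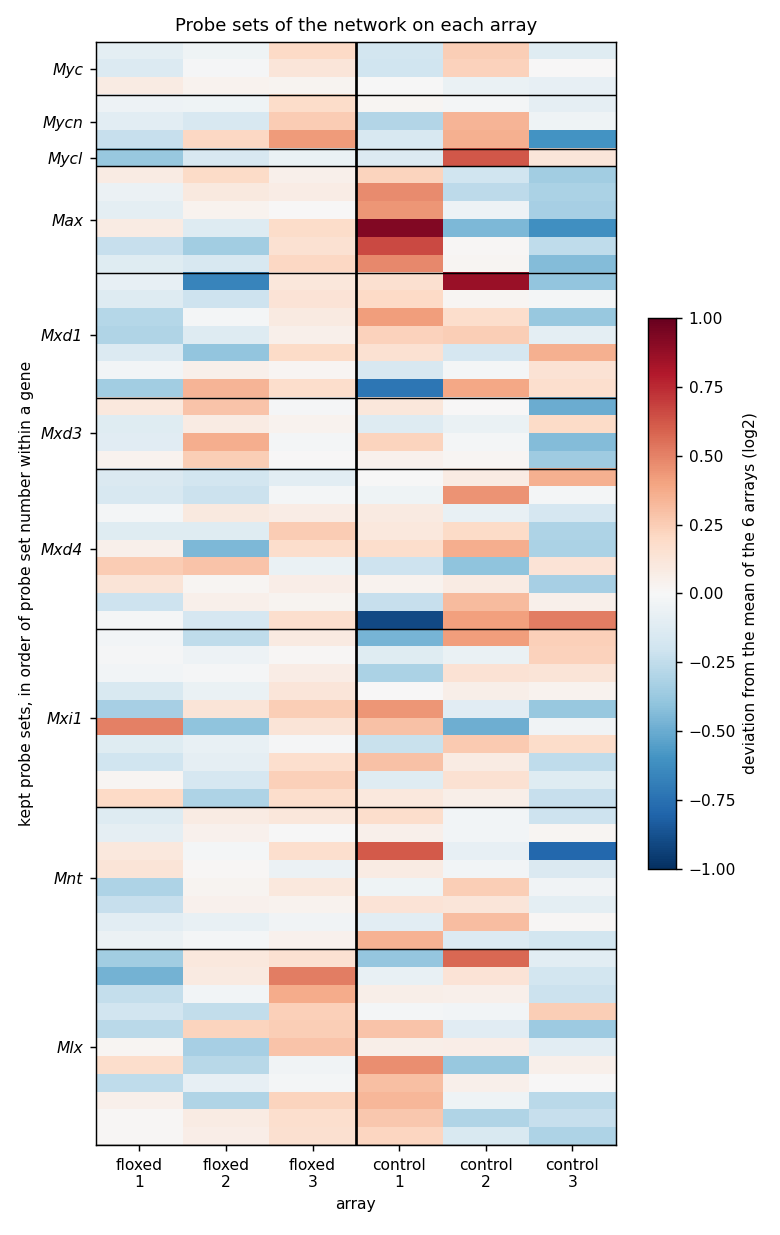
Deviation of each of the 62 kept probe sets from its own mean over the 6 arrays, in log2, with floxed arrays in the left 3 columns and control arrays in the right 3 and genes separated by lines. The 6 Max probe sets are high on control replicate 1, and no gene has a block that divides the groups.

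The balance of activator and antagonists was compared within each array. The gene value of Myc used here is that of its last probe set, and the other Myc probe sets were not compared in this way. Myc minus the mean of Mxd1, Mxd3, Mxd4 and Mxi1, centred on the 6 arrays, was 0.11, 0.05 and -0.05 log2 in floxed arrays and -0.09, -0.08 and 0.06 log2 in control arrays. The groups overlapped and differed by 0.07 log2. For Myc minus Mnt the values were 0.03, 0.10 and 0.04 log2 in floxed arrays and -0.19, -0.08 and 0.10 log2 in control arrays. The difference was 0.12 log2 with overlap. Myc minus the shared partner Max was 0.26, 0.29 and -0.15 log2 in floxed arrays and -0.58, -0.08 and 0.26 log2 in control arrays. That difference was 0.26 log2, again with overlap. Among 10190 other genes with 3 or more kept probe sets, those whose deviations over the 6 arrays lay nearest to Myc were Sptbn1, which encodes a spectrin, Alcam, which encodes an adhesion molecule, and Fmnl2, which encodes a formin. Their root mean square differences from Myc were 0.02, 0.03 and 0.03 log2 over 6 arrays. This measure is not scaled, so for a gene that varies little, as Myc did, it favours other genes that vary little. The Myc SD was 0.03 log2 in floxed and 0.04 log2 in control arrays, above that of 4.15% and 2.11% of all genes.

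Other parts of the pathway were read by counts and medians, and 0 of their genes passed in limma over all genes. Of all genes tested 54.2% were higher, with a median of 0.02. Of the 4 further network genes, 1 was higher and 3 lower. Bmyc, a rodent relative of Myc, had -0.27 (SE 0.15) for its log2 fold change, whereas Mga, a large Max partner, had 0.19 (SE 0.14). Corepressor subunits that the Mxd proteins and Mnt recruit were higher for 11 of 14, with a median of 0.12, and 3 of the 14 had an unadjusted p under 0.05, all higher, against 2.43% of all genes called higher at that p. The histone-binding subunit gene Rbbp7 had 11.21, 11.26 and 11.29 log2 in floxed arrays and 10.90, 11.00 and 10.96 log2 in control arrays, a difference of 0.30 (SE 0.10, limma adjusted p = 0.999). The deacetylase gene Hdac2 had 10.78, 10.40 and 10.67 log2 in floxed arrays and 10.29, 10.11 and 10.33 log2 in control arrays (0.37, SE 0.14, limma adjusted p = 0.999). Both genes are named for the smallest p in this list, and on both the groups did not overlap, although neither passed. Such separation was found for 4 of the 14 corepressor genes and for 8.44% of all genes. Rbbp4, a relative of Rbbp7, had 0.25 (SE 0.20). Chromatin cofactors of Myc were lower for 10 of 13, with a median of -0.05, including Hcfc1, a chromatin scaffold, at -0.25 (SE 0.12), and Crebbp, an acetyltransferase, at -0.01, while the helicase gene Ruvbl1 had 0.32 (SE 0.15). Genes that act on the turnover of Myc protein were higher for 11 of 16, with a median of 0.02, and none of them had an unadjusted limma p under 0.05. There the deubiquitinase gene Usp28 had 0.21 and the scaffold gene Axin1 -0.19, and the phosphatase gene Ppp2ca had 0.01. Groups did not overlap for 2 of the 13 chromatin cofactors, Hcfc1 (lower) and Ruvbl1 (higher), and for 1 of the 16 turnover genes, Usp28 (higher).

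Genes that Myc is known to activate were higher for 33 of 49 (67.3%), beside 54.2% of all genes, and their median difference was 0.07 log2 beside 0.02. At an unadjusted limma p under 0.05, 3 of the 49 were higher and 1 was lower, against 2.43% and 1.28% of all genes. Phb, a mitochondrial chaperone gene, was the lower one, with 9.82, 9.75 and 9.94 log2 in floxed arrays and 10.27, 10.17 and 10.20 log2 in control arrays, a difference of -0.38 (SE 0.12, limma adjusted p = 0.999). Gar1, a component of the RNA-guided pseudouridine enzyme, had 10.01, 9.95 and 10.20 log2 in floxed arrays and 9.75, 9.81 and 9.54 log2 in control arrays (0.35, SE 0.14, limma adjusted p = 0.999). The translation initiation gene Eif4a1 had 0.10. The mean deviation of the 49 genes was 0.08, 0.01 and 0.03 log2 in floxed arrays and 0.02, -0.02 and -0.12 log2 in control arrays, so the groups overlapped and control replicate 3 stood lowest. Genes that Myc is known to repress were even, 10 higher and 10 lower of 20, with a median of 0.00. Among these Thbs1, which encodes thrombospondin, had -0.91 (SE 0.42) with controls from 7.76 to 9.76 log2, the stress gene Gadd45a had 0.30 and Gas1 had 0.22. Targets of the Mondo and Mlx pair were higher for 4 of 9. Pklr, a pyruvate kinase gene, had 8.36, 8.30 and 9.21 log2 in floxed arrays and 9.16, 9.58 and 9.30 log2 in control arrays (-0.72, SE 0.24, limma adjusted p = 0.999), while the phosphatase gene G6pc3 had -0.23 (SE 0.11) and Txnip, the best known Mondo target, had -0.05 (SE 0.10). Pklr is also a gene of erythroid cells. Of 11 erythroid and megakaryocyte markers tested, of 16 listed, 10 were lower, with a mean of 9.51 to 9.93 log2 in floxed arrays and 9.75 to 9.94 log2 in control arrays, and their part in the Pklr value was not tested. In the marker lists 0 genes passed in limma, and 13 of 16 granulocyte and macrophage genes, 8 of 13 lymphoid genes and 3 of 5 genes of CD34 positive progenitors were lower, with medians of -0.29, -0.07 and -0.03. Proliferation markers were higher for 11 of 19 and stem cell markers for 9 of 13, with medians of 0.05 and 0.04. At an unadjusted limma p under 0.05, 2 of the 5 progenitor genes were lower, Cd27 (-0.54) and Gpr171 (-0.49), against 1.28% of all genes. On both all floxed arrays lay below all controls, and groups did not overlap for 8.44% of all genes. At that p 2 granulocyte and macrophage genes, 2 erythroid and megakaryocyte genes and 0 lymphoid genes were also lower. Among proliferation and stem cell markers 1 of each was higher, against 2.43% of all genes.

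**Figure D4:**
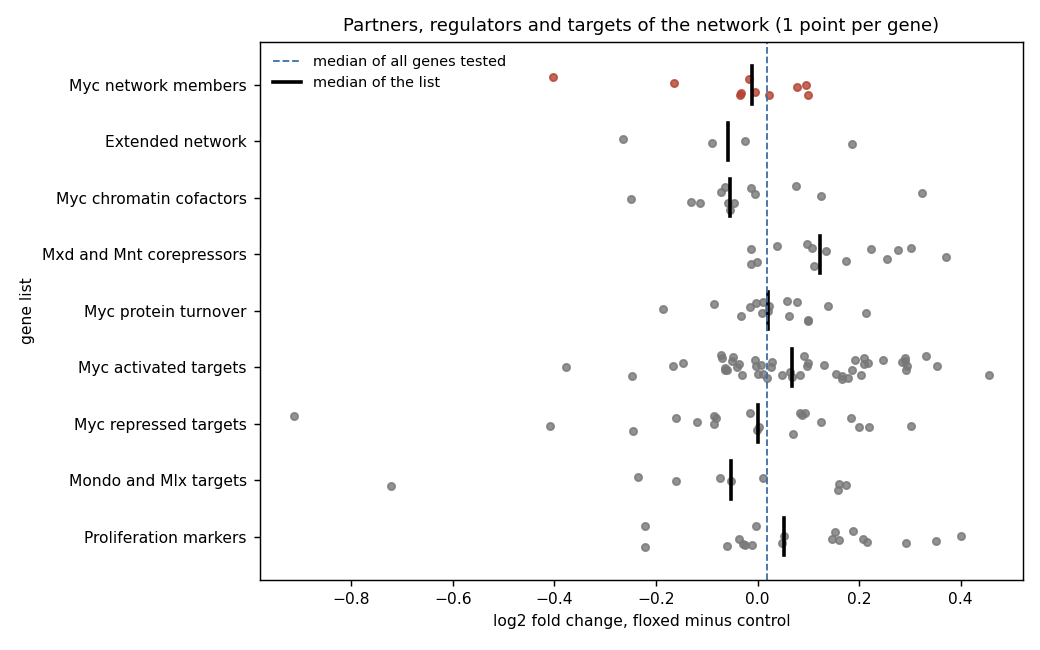
Log2 fold change, floxed minus control, of each gene in the network (red) and in lists of its partners, regulators and targets (grey), with the median of each list and of all genes tested (dashed). The network centres on -0.01, and its corepressors have the highest list median at 0.12.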

How the data were processed

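Gene expression was measured on 6 arrays, 3 floxed and 3 control. The table deposited by the authors held log2 values for each probe set, from 2.44 to 14.53; the base was inferred from this range. The submitters' processing notes name MAS5 without its role, and how background was handled, probes summarised and arrays scaled is not given in the sources used here. Input was 100 ng of total RNA per the labels' protocols. The values were analysed as they stood, and precision is limited by the few arrays.

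Groups and replicate numbers came from the sample titles. The platform annotation named 1 gene for 212097 probe sets, more than 1 for 4475 and no gene for 25004. Symbols were updated through RefSeq (GRCm38.p6): 17621 were current, 2742 were updated and 53 kept. Of 120788 kept probe sets, 110361 had 1 gene and gave 14586 genes. Tests were two-sided and used limma 3.58.1 (lmFit, eBayes with a mean-variance trend) in R 4.3.3. P-values were adjusted by Benjamini-Hochberg over all genes or all kept probe sets. The gene-level limma fit was also run on simulated gene values with added changes, all larger than the difference of any member. The filter, the symbols, the medians of probe sets and diffSplice were not simulated. The data.table version was 1.17.8.

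The members and lists were chosen with earlier results of these data known. The text names all members, Ctnnb1, and the 2 genes of smallest p and the 1 of highest mean in each pathway list. For marker lists it gives the counts, with Kit, Cd34, Cd27 and Gpr171 named. The 3 genes nearest to Myc by root mean square difference are also named. Alternatives covered scaling (quantile, equal medians), the filter (none, 75th percentile), the mean of probe sets, the variance model (no trend, robust), weights for arrays, a replicate block and leaving out each array. Same-numbered arrays had correlations of their deviations of 0.20, 0.00 and -0.24, so the numbers were not taken as pairs.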

Additional observations from a re-analysis of the deposited data

How the results depend on the processing

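Under 15 alternatives 0 of 10 members passed, with 1 exception: array weights gave 1 member, Mycl (-0.72, limma adjusted p = 0.0318), and 404 of 14586 genes, against 0 with equal weights. With no filter 2 genes passed, with the mean of probe sets 1 and without control replicate 1 it was 2, none of them a member. The count of member probe sets that passed was 0 under each alternative run. The log2 fold change of Myc kept its direction, between 0.04 and 0.12, and between 0.08 and 0.12 when 1 array was left out. Mycl also kept its direction, between -0.72 and -0.08, and Mycl and Mxd3 were not tested with the 75th percentile filter, which removed their probe sets. The replicate block moved no member past the threshold (Myc 0.10, 0 members called). The labels give the numbers no shared source, and of the control arrays 1 of 3, replicate 1, correlated best with the floxed array of its own number.

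The small differences of other members changed sign, none of them past the threshold. Mlx had -0.012 with quantile normalization, -0.0085 with equal array medians and -0.056 with array weights. Mycn had 0.13 with no filter, 0.026 with the 75th percentile filter and 0.11 using the mean of probe sets, but -0.30 with array weights, and Mnt had 0.0097 with no filter. Mxd1 had 0.056 with the 75th percentile filter. Using the mean of probe sets, Max had 0.0023 and Mxd4 -0.025. Leaving out 1 array gave -0.150 to 0.165 for Mycn, -0.574 to -0.194 for Mycl, -0.377 to 0.140 for Max, -0.174 to 0.078 for Mxd1 and -0.082 to 0.155 for Mxd3. It gave 0.038 to 0.164 for Mxd4, -0.097 to 0.059 for Mxi1, -0.111 to 0.071 for Mnt and -0.130 to 0.112 for Mlx. The median log2 fold change of all genes was -0.02 with quantile normalization. Signal over background is unknown without detection calls, and the cause of the sign changes was not tested. The diffSplice test returns no fold change of a gene and is given with the probe sets.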

Other observations

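Max, Mxd1 and Mlx shared a profile of signs that crosses the groups. Only the side of a gene's own mean was matched, and the sizes differed. On control replicate 1 the deviations of Max, Mxd1 and Mlx were 0.57, 0.24 and 0.07 log2. They were 0.02, 0.07 and 0.04 log2 on control replicate 2 and 0.18, 0.19 and 0.32 log2 on floxed replicate 3. Each of these 3 genes lay above its own mean on control replicates 1 and 2 and floxed replicate 3 and below it on the other 3 arrays, a profile seen in 5.72% of all genes tested. The network's own mean had the same profile, but it includes these 3 genes and is not separate from them. None of the other members had the profile. The means of 5 lists had it too. These were granulocyte and macrophage markers, lymphoid markers, erythroid and megakaryocyte markers, targets of Mondo and Mlx, and chromatin cofactors of Myc. Mean deviations of the granulocyte and macrophage list were -0.39, -0.35 and 0.25 log2 in floxed arrays and 0.40, 0.49 and -0.40 log2 in control arrays. Of the 62 kept probe sets of the network, 9 had this profile. The share over all kept probe sets was not computed, so this count has nothing to be set against. The profile was noticed after the values were seen, and its source was not tested.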
